A study of Drosophila melanogaster with 4 samples.

Results

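Probes of a set of transcripts read lower in 10-day-old adult females after prenatal exposure to hyperbaric normoxia (HN) than in control females. The set numbers 146 of the 15676 transcripts that the array measures under a FlyBase transcript identifier (FBtr), and is read by 168 of 21498 such probes. No like loss was called in males. However, 41 of the 168 probes were well above background on neither male array, where a loss could not be seen. The members were chosen by their measured values: a probe had to be well above background in control females with a processed signal of at least 50 there, to lie below 0.5 as the ratio of HN over control females, and not to lie below 1/1.5 as the ratio of HN over control males, unless it was well above background on neither male array. The female loss is therefore what chose the set and is described without a test. Of the 168 probes, 92 had repeat spots within 2-fold in control females or another member probe of their transcript. In 10 of the transcripts, 12 further probes that passed the control female filter had female ratios above 0.8.

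HN was a pressure of 2 atmospheres absolute in a gas set to be normoxic at that pressure, and thus not compressed air, applied to fertilized eggs until eclosion, after which the adults were kept in a climate-controlled incubator. The groups were HN females, control females, HN males and control males, all whole bodies of the wild-type strain w1118 at 10 days of age. Each group was 1 pool of 20 flies on 1 Agilent one-color array, so no spread between pools is known, no test between groups is possible, and each difference below is one between 4 pools. Levels are given as multiples of the median probe of the array, which is set to 1, and every ratio is HN over control unless said otherwise.

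An adult female fly carries large ovaries, whose RNA makes up much of what a whole-body extract holds, whereas the testis and accessory glands contribute the transcripts typical of males. Whole-body levels thus mix the activity of a gene with the amount of each tissue, and in such bulk samples fewer cells of a type and less RNA per cell cannot be told apart. The files name the members by transcript identifier only and no member received a gene symbol, so no gene function is stated for them.

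All arrays were on 1 slide. A single scan covered both female arrays and that of HN males, and the control male array was scanned separately. The female comparison thus lies within 1 scan, whereas in males scan and treatment cannot be told apart. Between 67.75% and 79.09% of the 32162 probes of an array were well above background, and the unscaled median signal was 180 in HN females, 192 in control females, 453 in HN males and 356 in control males. Of the few marker genes with a symbol, Vm34Ca, a vitelline membrane protein of the eggshell, was at 107 in HN females and 99.6 in control females and not well above background in either male pool. Dup99B, a peptide of the male ejaculatory duct, was at 0.111 in HN females, not well above background in control females, and at 18.5 in HN males and 18.7 in control males. The testis gene soti was not well above background on any array and checks nothing.

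Of the 16148 FBtr probes that passed the filter in control females, 192 (1.19%) were below the female limit, and 168 of these also met the condition on males. The other 24 were lower in HN males as well. In the opposite direction, 87 of the filtered probes were more than 2-fold higher in HN females. With the sexes exchanged, the same rule found 68 probes of 18411 that passed the filter in control males. Of 3570 probes with other identifiers that passed the same filter in control females, 67 (1.88%) were below 0.5.

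The losses were deep. The members' median level was 0.210 in HN females and 1.102 in control females, and over all filtered probes it was 13.8 in HN females and 14.5 in control females. Their median log2 ratio in females was -2.12, with a range of -7.74 to -1.003 as measured, and the median over all filtered probes was -0.06. Of the 168 probes, 88 were more than 4-fold lower in HN females and 51 more than 8-fold lower. Where a dim HN signal is replaced by the lowest level well above background, 41 were more than 8-fold lower. In HN females 58 members (34.5%) were not well above background at all, which held for 0.39% of the filtered probes. A fold change of such a probe is a lower bound, written as "at least", and is set against that lowest level.

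**Figure D1:**
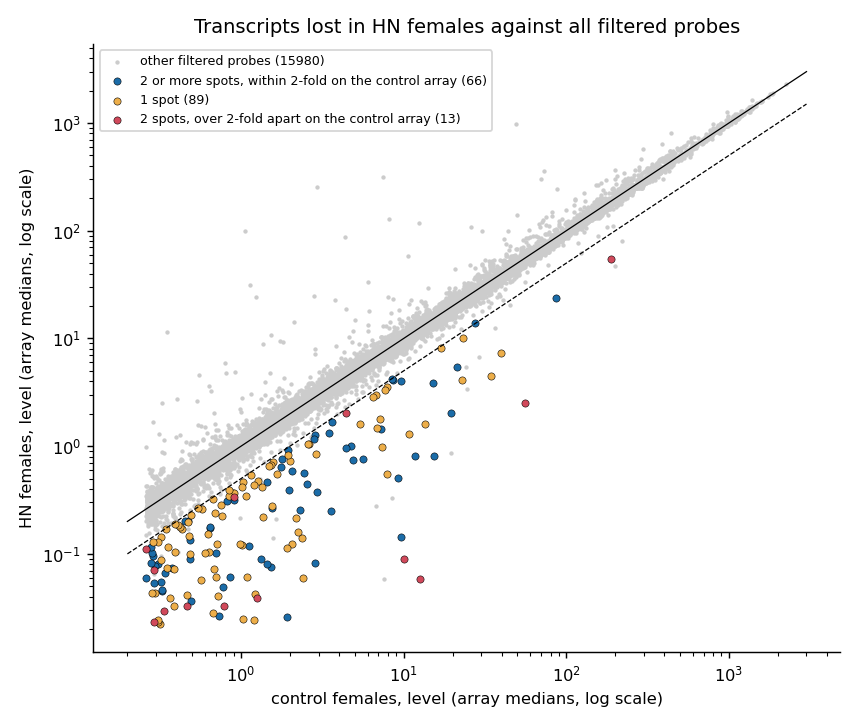
Level in HN females (vertical) against control females (horizontal), both in multiples of the array median on log scales, 1 pool per group. The 15980 other filtered probes (grey) lie along the solid line of equal level, and the members lie below the dashed line of a ratio of 0.5, most of them at control levels under 10. Colors show whether the repeat spots of a member lay within 2-fold of each other on the control female array (66), lay further apart (13), or were not available because the probe had 1 spot (89).

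Most members were dim beside the filtered probes as a whole. Of the 16148 filtered probes, those with a processed signal from 50 to 100 in control females were below the female limit in 5.01% of cases (52 of 1037), those from 1000 to 5000 in 0.744% (34 of 4572), and those of 5000 or more in 0.180% (11 of 6110). The lowest tier supplied 48 members, the tier from 100 to 200 supplied 34 and that from 200 to 1000 supplied 52. The tier from 1000 to 5000 supplied 28 and the highest tier 6. The 3 members just inside the female limit had ratios of 0.492 (FBtr0084845), 0.496 (FBtr0081254) and 0.499 (FBtr0084729), and just outside it lay FBtr0083971 at 0.505, FBtr0077832 at 0.507 and a further probe of FBtr0076136 at 0.518.

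Repeat spots of the same probe on the same array gave a first measure of error. Among 6829 filtered probes with repeat spots that were well above background on both female arrays, the pooled SD of the log2 ratio between repeat spots was 0.164, and among the 50 such members it was 1.09. It was larger where the HN female signal was not well above background, at 1.95 over 29 members and 2.30 over 31 filtered probes. Of the 79 members with at least 2 spots, 66 had control spots within 2-fold of each other and 13 did not. Over all 6860 filtered probes with repeats only 20 (0.292%) had control female spots that far apart, so that most of these 20 were members.

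The brightest member was among these 13, as were others of the brightest. FBtr0083756 read 9842 and 9831 in HN females (processed signal of each spot, not scaled), against 62701 and 9917 in control females. FBtr0086033 read 466 and 444 in HN females, against 20871 and 466 in control females. FBtr0307079, which had the lowest ratio of all members, read 10.2 and 11.0 in HN females, against 4818 and 6.998 in control females. In each of these 3 members, the dimmer control spot lay near the HN spots and the loss rested on the brighter one. The scanner software had marked an outlier spot in 5 of the 13.

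**Figure D2:**
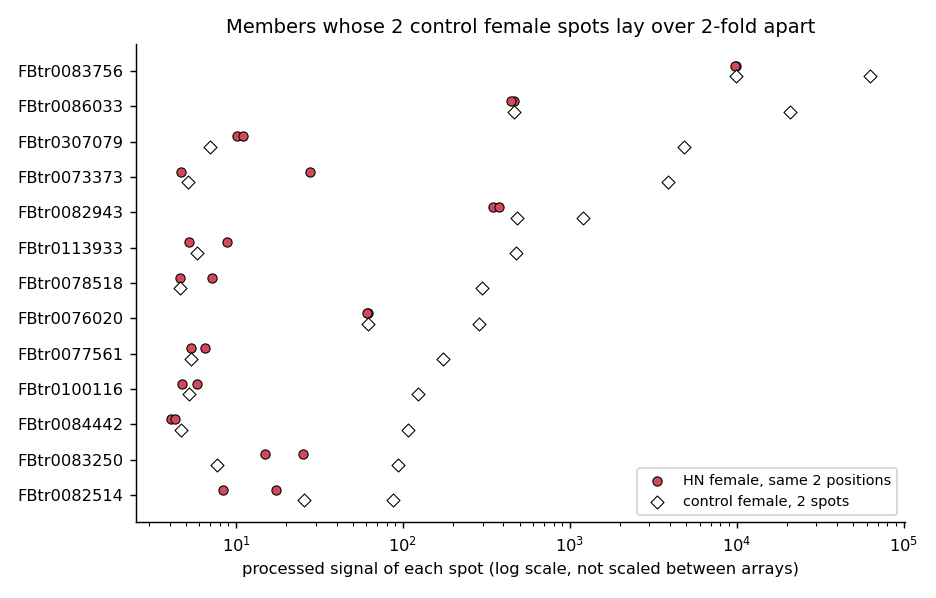
Processed signal of each spot (horizontal, log scale, not scaled between arrays) for the 13 members whose control female spots lay more than 2-fold apart, 1 pool per group, with HN female spots (red circles) drawn above control female spots (open diamonds). In FBtr0083756 and FBtr0086033 one control spot sits with the HN spots and the other lies 6.32-fold and 44.8-fold higher.

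The median pixel of a spot, which is less touched by a bright speck than the mean, gave a further reading of each probe and was added after the values were seen. By this reading 161 of the 168 members stayed below 0.5, among them 86 of the 89 members with 1 spot. The 7 that did not were FBtr0083756, FBtr0086033, FBtr0307079, FBtr0082943, FBtr0084845, FBtr0089327 and FBtr0100340. A subset was therefore set apart, likewise after the values were seen: 92 members (54.8%) of 70 transcripts that had either repeat spots within 2-fold on the control female array or another member probe of the same transcript. Another member probe was itself chosen by the female ratio, and agreement was asked of the control spots only. Of the 79 members with at least 2 spots, 63 had every spot below 0.5 as HN over control females and 16 did not. In this repeat-supported subset the median log2 ratio in females was -2.12, 47 probes were more than 4-fold lower and 28 (30.4%) were not well above background in HN females. Leading counts are given for it beside those for all members.

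The brightest repeat-supported transcript was FBtr0303819. Its level was 23.7 in HN females and 87.0 in control females, and 59.5 in HN males and 55.5 in control males. HN females were thus the lowest of the 4 pools, 3.67-fold below control females, while the male pools differed little. FBtr0303833 had 3.89 in HN females and 15.1 in control females, and 4.19 in HN males and 4.70 in control males. The rule removed probes clearly lower in HN males, so a loss in females alone was a condition here and not a finding.

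Some transcripts that were bright among the members were far higher in females than in males among the controls. They kept only a small part of their female level after HN. FBtr0082606 was at 0.819 in HN females and 15.3 in control females, which is 18.7-fold lower, and at 0.125 in HN males and 0.107 in control males. FBtr0075620 was at 0.142 in HN females and 9.60 in control females, a 67.6-fold difference, and well above background in neither male pool. FBtr0080237 was at 0.506 in HN females and 9.18 in control females, and at 0.118 in HN males and 0.152 in control males. In all 3 the HN female pool lay far below the control female pool while the male pools were low.

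FBtr0086268 was read by 3 probes that moved alike. The brightest gave 0.807 in HN females and 11.8 in control females, and the 3 log2 ratios lay between -4.08 and -3.85. None of the 3 was well above background in control males. FBtr0080193 behaved in the same manner, with 0.764 in HN females and 5.64 in control females on its brighter probe, log2 ratios of -2.89 and -2.64 on its 2 probes, and no signal well above background in males. Both transcripts were thus detected in females alone or nearly so.

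Some transcripts fell below detection. FBtr0084979 was not well above background in HN females and at 1.93 in control females, at least 27.7-fold lower, with its control spots within 2-fold of each other. FBtr0084980, next to it in number, was at 2.40 in control females and at least 34.5-fold lower in HN females on the member probe, which had 1 spot. Its other probe, with 2 spots, was well above background on none of the 4 arrays, so its loss rests on that 1 spot. Neither transcript was well above background in males. FBtr0084955 was at least 17.2-fold lower on the brighter of its 2 member probes and likewise dark in males.

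**Figure D3:**
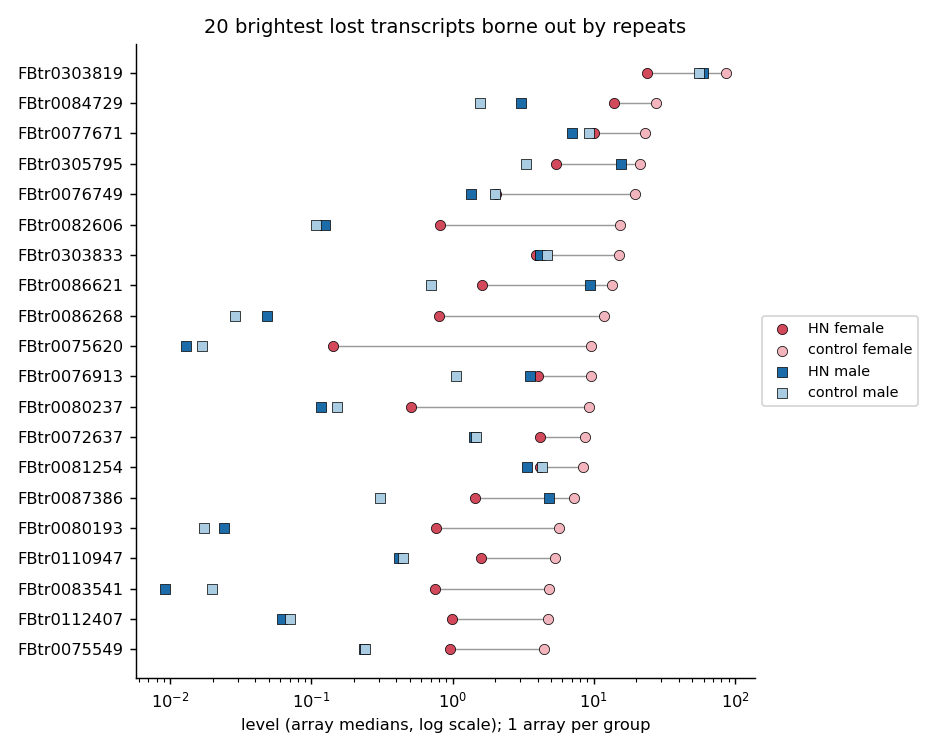
Level of the 20 brightest repeat-supported transcripts (brightest member probe of each) in HN females (dark red circles), control females (pale red circles), HN males (dark blue squares) and control males (pale blue squares), in multiples of the array median on a log scale, 1 pool per group. Grey lines join the female pools. The female pools are 3.67-fold apart for FBtr0303819 and 67.6-fold apart for FBtr0075620. Squares below 0.0256 in HN males and below 0.0537 in control males lie under the lowest level well above background on that array.

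Different probes of one transcript gave a check that does not rest on a single spot, although they were read on the same arrays and where they lie in the transcript is not given in the sources used here. Of 146 member transcripts, 37 had at least 2 probes past the filter. In 21 of these every such probe was a member, 43 probes in all. In 13 of the 21 every member probe was well above background in HN females, and there the log2 ratios of a transcript differed by a median of 0.16, with 10 of the 13 transcripts within 0.25 and the widest range, 0.96, in FBtr0112407. In the other 8 at least 1 probe gave only a lower bound. The 2 probes of FBtr0086621 gave -3.07 and -3.04, those of FBtr0076913 gave -1.25 and -1.22, and those of FBtr0084729 gave -1.06 and -1.003. FBtr0084955 was at least 17.2-fold lower on one probe and at least 11.2-fold lower on the other.

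In the other 16 transcripts at least 1 filtered probe was no member, 19 probes in all. Of these 2 were also below 0.5 in females, for FBtr0075674 and FBtr0075603, and missed the rule because they were lower in HN males too. Both were well above background in control males, at 0.102 and 0.125, and not in HN males. For FBtr0075674 this probe was at 6.74 in control females. Its member probe, at 2.86 there, was dimmer and dark in males. A further 12 probes of 10 transcripts had ratios above 0.8. The member probe of FBtr0100340 was at 7.30 in HN females and 39.5 in control females, whereas its other probe was at 32.8 in HN females and 34.8 in control females. FBtr0335169 had another probe at 59.0 in HN females and 60.7 in control females, and FBtr0078489 one at 19.3 in HN females and 19.9 in control females. The member probes of these transcripts were far dimmer, at 0.322 (FBtr0335169) and 0.349 (FBtr0078489) in control females. For these transcripts one probe reported a loss that another did not. Of the other transcripts, 91 had a single probe on the array and the rest had further probes that did not pass the filter.

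**Figure D4:**
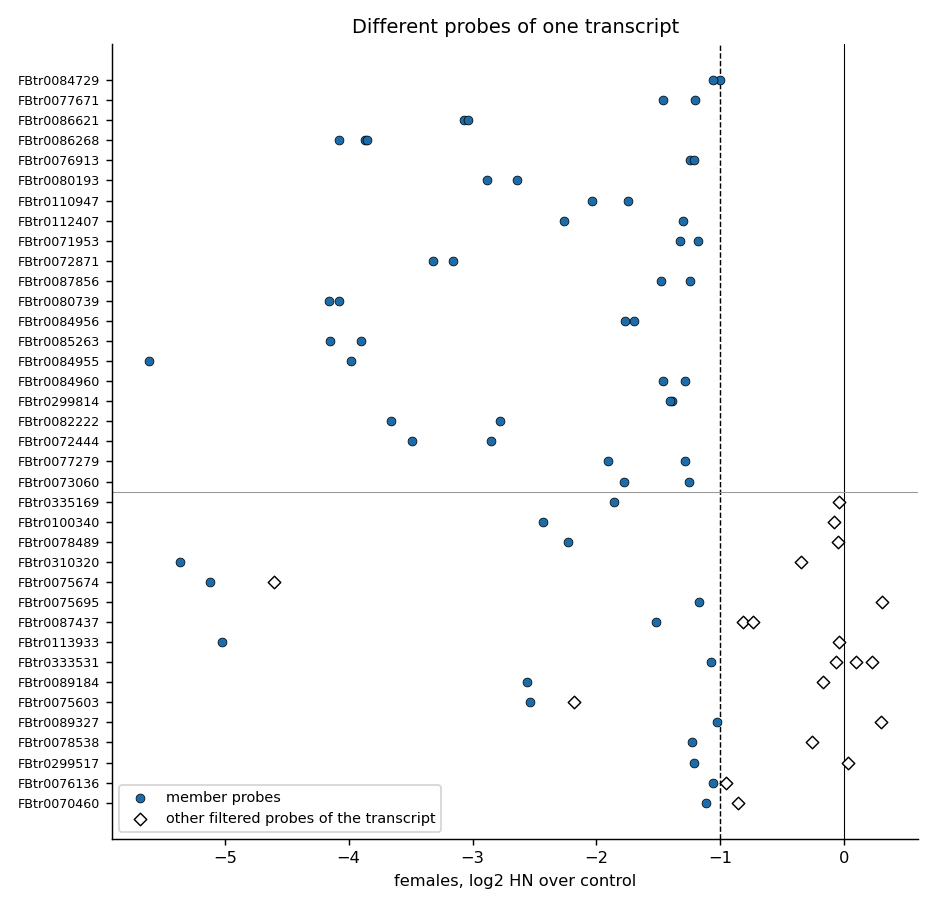
Log2 ratio of HN over control females (horizontal) for each filtered probe of the 37 member transcripts with at least 2 such probes, 1 pool per group. Filled circles are member probes, open diamonds are probes that are not members, and the dashed line is the female limit. In the 21 transcripts above the grey line all probes were members, some with a dim HN female signal that makes the ratio a bound, and in FBtr0335169, FBtr0100340 and FBtr0078489 the other probe lies near 0.

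In males the condition of the rule removed clear losses, so the male ratios of members are a description. Of the 168 members, 101 were well above background in both male pools, 26 in HN males alone, none in control males alone and 41 in neither. Among these 41, 22 had a measured male ratio below 1/1.5 and were kept only because they were dark in males. Over the 101, the median log2 ratio was -0.03 and 84 lay within 1.5-fold. In HN males 17 of the 101 (16.8%) were more than 1.5-fold higher than in control males, against 2.2% of the 15651 filtered probes on both male arrays. In the repeat-supported subset it was 10 of 50. The male condition itself raises this share by removing lower probes. Without it, 120 probes below the female limit were on both male arrays. Of these, 17 (14.2%) were more than 1.5-fold higher in HN males. Another 19 of the 120 were more than 1.5-fold lower, against 1.15% of the filtered probes on both male arrays. The share of members more than 1.5-fold higher in HN males was 16.8% under 4 of the 5 scalings tried. It was 21.8% without any scaling, where the share among filtered probes was 10.74%.

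These 17 probes belonged to 14 transcripts. Of them, 12 were more than 2-fold higher in HN males, which is 11.9% of the 101 members, against 0.716% of the filtered probes on both male arrays. FBtr0087386 was at 1.45 in HN females and 7.29 in control females, and at 4.84 in HN males and 0.305 in control males, so that it was 5.02-fold lower in HN females and 15.9-fold higher in HN males. FBtr0086621 was at 1.61 in HN females and 13.5 in control females, and at 9.39 in HN males and 0.703 in control males, with its other probe at 1.31 in HN females and 10.8 in control females, and 7.03 in HN males and 0.560 in control males. With the array median as the unit, both transcripts were higher in females among the control pools and higher in males among the HN pools.

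FBtr0305795 had 5.43 in HN females and 21.3 in control females, and 15.6 in HN males and 3.30 in control males. FBtr0076913 had 4.04 in HN females and 9.58 in control females, and 3.55 in HN males and 1.05 in control males. In FBtr0084729 the female loss was 2-fold, and the male level was 3.05 in HN males and 1.56 in control males. FBtr0086620, read by 1 spot, had 4.49 in HN females and 34.3 in control females, and 8.51 in HN males and 3.95 in control males. All of them thus moved in opposite directions in the sexes, with the caution that the control male array was read in its own scan.

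FBtr0087437 showed how far this depended on the probe. Its member probe was at 0.240 in HN females and 0.688 in control females, and at 1.29 in HN males and 0.330 in control males. Its 2 other filtered probes missed the female limit, at 3.21 in HN females against 5.65 in control females, and at 3.04 in HN females against 5.06 in control females. In males these 2 probes were at 3.55 in HN males against 0.327 in control males, and at 3.64 in HN males against 0.474 in control males. All 3 probes were thus lower in HN females and higher in HN males.

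**Figure D5:**
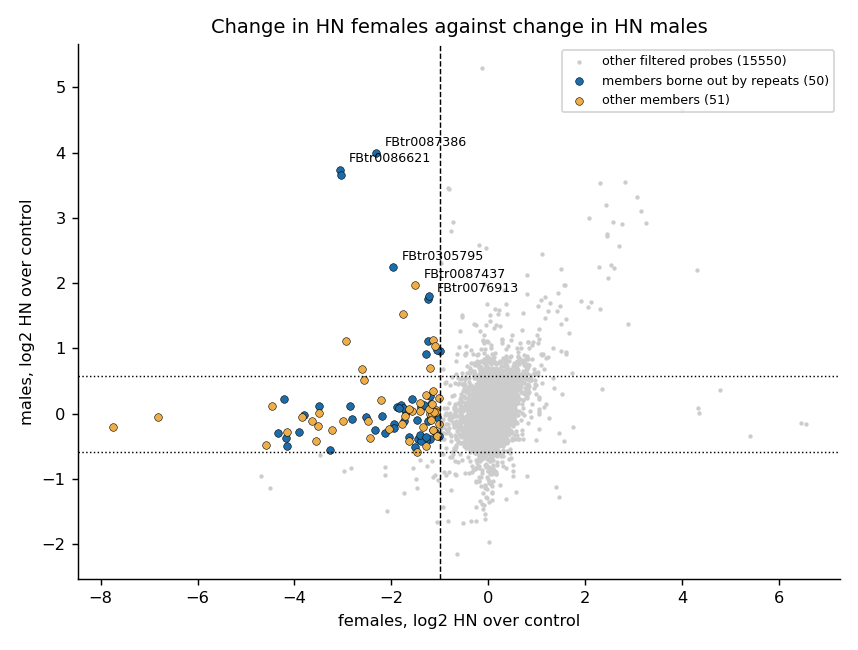
Log2 ratio of HN over control in males (vertical) against females (horizontal) for probes well above background in both male pools, 1 pool per group. Blue circles are 50 repeat-supported members, orange circles the 51 other members and grey points the 15550 other filtered probes. The dashed line is the female limit and the dotted lines mark 1.5-fold in males, and FBtr0087386, FBtr0086621, FBtr0305795, FBtr0087437 and FBtr0076913 stand above the rest of the members.

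By readings that partly chose them, the members were more often female-biased in control flies than filtered probes in general. Levels between the sexes depend on the scaling, so members are given beside all filtered probes under each. With the array median as the unit, the members' median log2 ratio of control females over control males was 2.63 and that of all filtered probes 1.82, a difference of 0.81. This difference was the same under the scalings by a constant per array and 2.03 under quantile normalization. In the repeat-supported subset the difference was 0.99 under the array median. With the array median, 102 members (60.7%) were at least 4-fold higher in control females than in control males, against 45.9% of the filtered probes, and 64 of the 92 repeat-supported members (69.6%) were. Where the scaling used only the probes detected on all 4 arrays, the shares were 25.6% of members and 11.9% of filtered probes. The control female array entered both this comparison and the choice of members, so a high reading there raises both. The filtered probes were not matched to the members for brightness. In the HN pools, with the array median and dim signals as measured, the median log2 ratio of females over males was 0.40 for members and 1.77 for all filtered probes. The HN female array chose the members too, so a low reading there lowers their value.

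Detection does not depend on the scaling. Here 41 members (24.4%) were well above background in neither male pool, against 1.27% of the filtered probes. Because the rule keeps such probes whatever their male ratio, the share was also taken before the male condition, where it was 21.4% of the 192 probes. It was 28.3% in the repeat-supported subset. Among members with a processed signal from 50 to 100 in control females, 12 of 48 (25.0%) were dark in males, against 6.27% of all filtered probes of that brightness. From 100 to 200 it was 7 of 34 (20.6%) against 2.99%. From 200 to 1000 it was 18 of 52 (34.6%) against 1.33%, and from 1000 to 5000 it was 4 of 28 (14.3%) against 0.656%. A high reading on the control female array alone meets the female limit and leaves a probe dark in males, so these shares draw on values that chose the members and are a description. None of the 6 brightest members was dark in males.

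At the other end, 19 members (11.3%) were more than 2-fold higher in control males than in control females, against 4.11% of the filtered probes, but this order turned round under other scalings: 22.6% of members and 31.0% of filtered probes when scaled on the probes detected on all 4 arrays, and 18.5% of members and 27.9% of filtered probes by the 75th percentile. Among them, FBtr0085612 was at 0.915 in HN females and 1.96 in control females, and at 38.3 in HN males and 46.4 in control males. FBtr0070758 was at 1.15 in HN females and 2.82 in control females, and at 11.0 in HN males and 14.5 in control males. Each of these was higher in males than in females among the control pools, and its female level was lower still after HN. FBtr0077561, the most male-biased member at 161 in HN males and 166 in control males, rested in females on 1 of 2 control spots, and its other probe was not well above background in either female pool. Only 6 of the 19 were repeat-supported.

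Some members carried consecutive identifiers. In 8 runs, 17 member transcripts followed each other in number, 7 runs of 2 and 1 of 3. Of the 154 filtered probes whose identifier lay 1 above or below that of a member, 23 (14.9%) were below 0.5 in females, against 1.19% of all filtered probes. These 23 were the 22 member probes of the runs and 1 of the 132 probes that are not members. FBtr0075620 and FBtr0075621 were both dark in males. The first had a log2 ratio of -6.08 in females and the second was at least 10.5-fold lower in HN females. FBtr0080392 and FBtr0080393 had -1.14 and -1.30 in females and male ratios of 1.27 and 1.23. FBtr0087437 and FBtr0087438 had -1.52 and -1.76 in females and were 3.90-fold and 2.87-fold higher in HN males. Within the run of 3, FBtr0084954 and FBtr0084955 were dark in males while FBtr0084956 was detected there, with log2 ratios in females of -1.77 and -1.70 on its 2 probes. Whether the probes of a run share target sequence was not tested.

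The member spots were spread over the array. With its rows and its columns each divided into 4 equal parts, between 23.5% and 26.7% of the 255 member spots lay in each part of the rows. There were 73, 51, 55 and 76 spots in the 4 parts of the columns in turn, against 24.6% to 25.5% of the filtered spots in each part. The outer columns thus held more of the member spots than the inner ones, and the part of this in the losses was not tested.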

How the data were processed

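Total RNA of whole flies was amplified, labeled with Cy3 and hybridized to 4 Agilent one-color arrays, 1 per group. The authors deposited the intensity of every spot as Feature Extraction 11.5.1.1 gave it, background-subtracted and not scaled between arrays, with other marks for each spot (well above background, outlier, control). They also deposited a table of probe intensity values, of which 98.98% to 99.3% per array lay within 0.1% of the means used here.

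Spots of a probe were averaged and divided by the median of the array over its non-control probes (Python 3.11.15, pandas 2.3.3, numpy 2.4.6). A probe counted as well above background where at least 50% of its spots did. As a background alternative, normexp was run in limma 3.58.1 under R 4.3.3 on median spot and background signals, because a mean signal was not in the columns used here. With 1 array per group no test was run. The number of arrays limits the precision, and repeat spots show the error of measurement only. The rule as coded was tested on simulated data. Those data held no errors of single spots, so that test does not bear on how reliable the members are.

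The members and lists were chosen with earlier results of these data known. Members named in the text were the brightest, those with the lowest ratios, with several member probes, with the highest and lowest ratios between the sexes, with the highest ratios in HN males and those next to the limits. Others were named after their values were seen, among them FBtr0303833, FBtr0080237, FBtr0085612 and FBtr0070758. Only 412 of the 32162 probes, from 360 genes, received a symbol through a RefSeq table of the Release 6 assembly. Of 8 gene lists (ovary and eggshell, fat body and yolk, accessory gland, testis, chitin and cuticle, heat shock and antioxidant, immune, digestion) at most 2 members of any list were named, so lists were not counted. No sequences or coordinates of probes were used here.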

Additional observations from a re-analysis of the deposited data

Results flagged for a closer look

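In 14 transcripts, with 17 member probes, the HN pools lay on opposite sides of their controls in females and males, beyond 1.5-fold in both. With 1 pool per group this difference between females and males was not tested. FBtr0087386 was at 3.99 (males) and -2.33 (females) as log2 ratios. FBtr0086621 had 3.74 (males) and -3.07 (females) on one probe, and 3.65 (males) and -3.04 (females) on the other. FBtr0305795 had 2.24 (males) and -1.97 (females). FBtr0087437 had 1.97 (males) and -1.52 (females). FBtr0076913 had 1.76 (males) and -1.25 (females) on one probe, and 1.80 (males) and -1.22 (females) on the other. FBtr0086620 had 1.11 (males) and -2.93 (females). FBtr0084729 had 0.96 (males) and -1.003 (females) on one probe, and 0.98 (males) and -1.06 (females) on the other. FBtr0087438 had 1.52 (males) and -1.76 (females). FBtr0081829 had 1.12 (males) and -1.15 (females). FBtr0082339 had 1.11 (males) and -1.25 (females). FBtr0335216 had 1.04 (males) and -1.10 (females). FBtr0088135 had 0.91 (males) and -1.28 (females). FBtr0071854 had 0.70 (males) and -1.20 (females). FBtr0336645 had 0.68 (males) and -2.60 (females), with a signal not well above background in HN females. In males the scan cannot be told apart from the treatment.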

How the results depend on the processing

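With 1 pool per group, leaving out a replicate was not possible. No paired analysis was possible because each group held 1 array. Of 19 other settings, 16 were planned and 3 were chosen after seeing the data (no condition on males, the median pixel, repeat support). The count of 168 member probes became 92 with normexp, 86 with a signal minimum of 200, 275 with no minimum, 109 with a female limit of 1/3, 278 with a limit of 1/1.5, 101 on both male arrays and 92 with repeat support. Of the 168, normexp kept 87 and quantile normalization 148. The 58 members not well above background in HN females became 25 with normexp, 12 with the minimum of 200, 162 with none, 23 on both male arrays and 28 with repeat support. The median female log2 ratio of -2.12 became -1.66 with normexp, -2.89 and -1.21 with the limits of 1/3 and 1/1.5, and -1.63 on both male arrays. The median male log2 ratio of -0.03 became 0.26 without scaling, where all filtered probes had 0.29. The median log2 ratio of control females over control males, 2.63, became 1.04 with the 75th percentile, 1.64 without scaling, 0.86 when scaled on probes detected on all 4 arrays, 2.81 with quantile normalization, 2.24 with normexp, 2.24 with the deposited table, 2.83 with the mean of log2 signals, 2.39 with every spot well above background, 3.29 with the minimum of 200, 1.47 with none, 3.00 and 1.90 with the limits of 1/3 and 1/1.5, 1.40 on both male arrays, 2.86 by the median pixel and 2.81 with repeat support. The count of 2 other probes below 0.5 became 5 without scaling, 1 with normexp, 1 with the minimum of 200, 5 with the limit of 1/3 and 0 with no condition on males. The causes were not tested, except that stricter limits hold fewer probes by construction. Dim signals limit the losses of the 58 members not well above background in HN females, which are lower bounds.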

Other observations

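Probes with other identifiers, which are not members, were put through the same thresholds. Of these, 64 met the whole rule. The few with a symbol were named after their values were seen, 9 probes of 5 genes among 227 named probes. Ilp4, an insulin-like peptide, was at 0.115 in HN females and 1.44 in control females on one probe, not well above background in HN females and at 1.30 in control females on the other, and dark in males. slp1, a transcription factor of embryonic segmentation, was at 0.639 in HN females and 1.55 in control females, and at 0.715 in HN males and 0.784 in control males.

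roX1, the noncoding RNA that coats the male X chromosome in dosage compensation, was lower in HN females on 4 probes. They gave 0.399 in HN females and 2.96 in control females, 0.306 in HN females and 1.64 in control females, 0.287 in HN females and 1.66 in control females, and 0.124 in HN females and 0.272 in control females. In males the first of these was at 85.2 in HN males and 89.6 in control males. roX2, its partner RNA, was not well above background in either female pool on either of its probes, and the brighter was at 4.08 in HN males and 3.61 in control males. CG10089 was at 0.284 in HN females and 0.659 in control females, and at 20.7 in HN males and 23.1 in control males. Ir7b, an ionotropic receptor, was not well above background in HN females and at 3.59 in control females, but its control spots lay 99.8-fold apart.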
